A study of Mus musculus with 12 samples.

Results

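The transcripts of 40 DNA replication and S phase genes were followed in mouse liver cancer cell lines given a BRAF inhibitor. The genes are those of a fixed list of symbols that spans origin licensing, the MCM helicase, the replication fork, nucleotide supply, chromatin assembly and the E2F transcription factors. All 40 were found among the 47729 genes of the deposited count tables, and all 40 passed the filter on low counts. Each of 3 metastasis lines (M1 to M3, grown from metastases in lymph nodes) and 3 primary lines (T1 to T3, grown from liver tumours) gave 1 library after 48 h with 2 µM PLX4720, an inhibitor of mutant BRAF, and 1 library after 48 h with DMSO, its solvent. That makes 12 libraries and 4 groups of 3: metastasis with PLX4720, metastasis with DMSO, primary with PLX4720 and primary with DMSO. For all 6 lines the labels give the genotype BRAFV600E with p53 KO, so the DMSO libraries carry the same alleles as the treated ones, and no line without mutant BRAF was analysed here. The design text of the series describes hepatocyte-specific BRAFV600E together with deletion of Trp53 or Cdkn2a. Replicates are separate cell lines. In the tests of PLX4720 against DMSO, p-values rest on how the change within a line varied between lines. In the comparisons of sites within a treatment, they rest on the spread of levels between these lines. Whether any of them share an animal is not stated, and T3, M2 and M3 carry a common number in the names of their tables.

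Replication begins when the origin recognition complex, Cdc6 and Cdt1 load the ring of MCM proteins onto DNA in G1. In S phase Cdc45 and the GINS proteins join that ring to make the active helicase, and polymerases, the sliding clamp and its loader copy the DNA behind it. E2F factors, held back by retinoblastoma family proteins until cyclin-dependent kinases act on them, switch on many of these genes, and in cells with mutant BRAF the ERK pathway feeds into that step through D-type cyclins.

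Library totals ran from 31992512 to 39288748 counted fragments, and the replication genes took 0.421% to 0.658% of them. Mitochondrial genes took 3.67% of the fragments in the PLX4720 library of T3 and 0.189% to 0.712% in the other 11 libraries. Of 6 hepatocyte markers none reached 1 CPM (counts scaled to a common library size) in the metastasis lines, where their summed level was 0.0291 to 0.269 CPM and 3 of them were at 0 in every library. In the primary lines 5 of 6 reached it, with a summed level of 132 to 293 CPM, of which the transcription factor Hnf4a made 121 to 266 CPM and the other 5 together 1.16 to 27.4 CPM. The summed level of 4 epithelial markers was 0.536 to 14.8 CPM in the metastasis lines and 4349 to 6697 CPM in the primary lines, and that of 5 mesenchymal markers was 4553 to 13386 CPM in the metastasis lines and 1637 to 4354 CPM in the primary lines. Without Vim the mesenchymal sum was 529.8 to 9017 CPM in the metastasis lines and 1.74 to 26.9 CPM in the primary lines. No leukocyte marker reached 1 CPM in any library. Of 3 endothelial markers 2 reached it in the primary lines and 0 in the metastasis lines. Their summed level was 0.184 to 5.32 CPM in the primary lines and 0.121 to 0.418 CPM in the metastasis lines. Of 2 fetal liver markers, Afp and Dlk1, 2 reached 1 CPM in either site. Their summed level was 1.13 to 34.3 CPM in the metastasis lines and 4.09 to 13.9 CPM in the primary lines. Hepatocyte markers therefore show in the primary lines only, mainly through Hnf4a, while the summed fetal liver levels overlapped. Any difference between sites in replication genes stands beside these marker differences in cell state, whose part in it was not tested.

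Over all 6 lines, PLX4720 lowered 22 of the 40 transcripts and raised none (edgeR quasi-likelihood test, Benjamini-Hochberg adjusted p under 0.05 over 16555 genes). Among all genes tested, 12.7% were lower and 14.5% higher by the same rule. No gene of the 40 was higher by DESeq2 either, which found 24 lower (13.6% of all genes it tested). An unadjusted edgeR p under 0.05 was reached by 29 of the 40 (39.4% of all genes tested). The declines were small. The median fitted log2 change was -0.24 for the 40 genes, against 0.03 for all genes tested, and single genes ran between -0.75 for E2f2 and 0.15 for E2f7. The fitted change was below 0 for 37 of 40 and for 46.1% of all genes tested. A total of 19 genes were lower in every line and none was higher in every line, shares that were 12.8% and 12.7% among all genes tested. A further 17 genes were lower in 5 lines, 2 in 4 lines and 2 in 3 lines. These are bulk RNA measurements, so fewer cells in S phase and less of each transcript per cell cannot be told apart. Without T1 only 7 of 40 passed, and without M2 14 did, while 16 passed without T3, the line with the high mitochondrial share. The 7 calls that held whichever line was left out were those of Orc6, Cdc6, Cdc45, Rpa2, Pcna, Tk1 and E2f2. Without T1, M2 or T3, fewer genes of the whole table were called lower too, 6.25%, 7.57% and 8.15%.

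**Figure D1:**
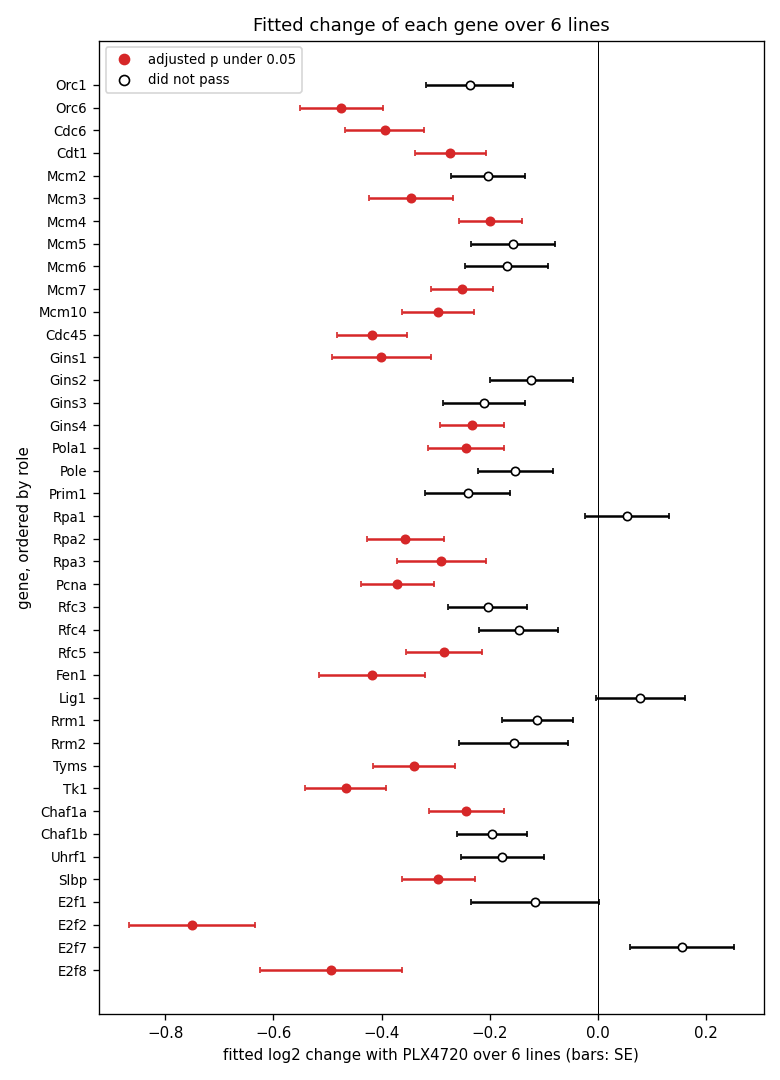
Fitted log2 change with PLX4720 over 6 lines (horizontal axis, bars give the SE) for each of the 40 genes, ordered by role down the page. Filled red points passed an edgeR adjusted p of 0.05, and all 22 of them lie left of 0, while Rpa1, Lig1 and E2f7 lie right of it.

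E2F factors bind a short GC-rich word, and the promoters of several of these genes hold it close to the start. Windows of 300 bases (250 before and 50 after the annotated start, RefSeq, GRCm38.p6) were available for 35 of the 40 genes and not for Gins1, Gins2, Gins4, Mcm4 and Pole. The words TTTCCCGC, TTTCGCGC, TTTGCCGC and TTTGGCGC were searched on both strands, where TTTCGCGC and TTTGGCGC can overlap each other across strands. At least 1 word occurred in 12 of the 35 windows (34.3%), against 629 of 27025 windows of all genes (2.33%). The word was in 6 of 19 windows of genes that fell and in 6 of 16 windows of genes that did not pass. A match is a run of letters and not a measured binding site. The stretches around the words of Mcm3, Mcm5, Mcm6 and Mcm7 are shown because 4 of the 6 MCM ring genes carry a word, with the word in capitals and each stretch written 5′ to 3′ on the strand of its gene.
Mcm3 (chr1:20820277-20820302, minus strand): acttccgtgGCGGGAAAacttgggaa
Mcm3 (chr1:20820263-20820283, minus strand): ttgggaagtTTTGGCGCcaag
Mcm5 (chr8:75109347-75109376, plus strand): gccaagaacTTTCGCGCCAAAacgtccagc
Mcm6 (chr1:128359795-128359824, minus strand): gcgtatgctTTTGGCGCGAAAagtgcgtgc
Mcm6 (chr1:128359736-128359761, minus strand): ttggacgggTTTGGCGCgaagtagct
Mcm7 (chr5:138172032-138172057, minus strand): tttcgaaccGCGGGAAAcagggtgtc
Mcm7 (chr5:138171851-138171876, minus strand): gtgacgacgTTTCGCGCcaatttcgg
In Mcm5 and in the first stretch of Mcm6 a run of 12 capitals holds 2 words that overlap on opposite strands. The same kind of stretch in licensing genes, at Cdc6 and Cdt1, which fell, and at Orc1, which did not pass, reads as follows.
Cdc6 (chr11:98908004-98908029, plus strand): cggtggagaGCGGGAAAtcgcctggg
Cdt1 (chr8:122568038-122568063, plus strand): aactaccttTTTGGCGCcatggcgca
Orc1 (chr4:108579418-108579443, plus strand): cggttagtgGCGCGAAAagttttctc
Words also lay in the windows of E2f7, Gins3, Pola1 and Rfc3. Whole windows are shown for E2f2 and Cdc45, the 2 genes with the smallest p over all 6 lines, and for Rpa1, which had the largest p.
E2f2 (chr4:136172024-136172323, plus strand): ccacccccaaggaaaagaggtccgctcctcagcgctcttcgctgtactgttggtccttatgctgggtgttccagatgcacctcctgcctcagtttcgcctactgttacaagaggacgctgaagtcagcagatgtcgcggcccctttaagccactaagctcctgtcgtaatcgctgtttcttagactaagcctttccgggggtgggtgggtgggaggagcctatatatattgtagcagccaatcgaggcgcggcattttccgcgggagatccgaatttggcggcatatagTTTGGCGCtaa
Cdc45 (chr16:18811923-18812222, minus strand): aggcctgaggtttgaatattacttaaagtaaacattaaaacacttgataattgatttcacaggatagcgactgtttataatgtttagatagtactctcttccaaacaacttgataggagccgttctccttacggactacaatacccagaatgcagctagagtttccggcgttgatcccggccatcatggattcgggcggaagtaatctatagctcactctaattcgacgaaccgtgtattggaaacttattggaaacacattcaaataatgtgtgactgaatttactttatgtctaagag
Rpa1 (chr11:75348334-75348633, minus strand): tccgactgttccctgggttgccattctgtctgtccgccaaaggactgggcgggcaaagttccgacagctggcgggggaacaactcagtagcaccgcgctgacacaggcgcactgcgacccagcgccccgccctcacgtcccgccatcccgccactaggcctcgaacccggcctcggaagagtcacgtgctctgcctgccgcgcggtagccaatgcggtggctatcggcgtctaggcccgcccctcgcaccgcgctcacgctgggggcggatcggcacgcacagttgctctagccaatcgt
The E2f2 window, taken at the first of 2 annotated starts, holds its word in capitals near its 3′ end, and the Cdc45 and Rpa1 windows hold none of the 4 words.

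Origin licensing genes were the group with the largest share of calls, 3 of 4 lower. Orc6, a subunit of the origin recognition complex (ENSMUSG00000031697, chr8:85299632-85308278, plus strand, GRCm38), stood at 37.4, 90.2 and 143 CPM in M1, M2 and M3 and 73.4, 68.8 and 70.1 CPM in T1, T2 and T3 with PLX4720, against 58.8, 128 and 161 CPM and 116, 88.1 and 100.1 CPM in the same lines with DMSO. Every line was lower with PLX4720 than with DMSO, and in the primary lines the treatments did not overlap, while M1 was low and M3 high under both. The fitted log2 change was -0.47 ± 0.08 (SE; edgeR adjusted p = 0.00309). Cdc6, the ATPase that brings the MCM ring to the origin (ENSMUSG00000017499, chr11:98907801-98923940, plus strand), stood at 45.6, 63.0 and 68.4 CPM in M1, M2 and M3 and 53.9, 51.3 and 54.0 CPM in T1, T2 and T3 with PLX4720, against 66.6, 93.0 and 77.8 CPM and 77.8, 62.1 and 64.9 CPM in the same lines with DMSO. It too was lower in every line, and its log2 change was -0.39 ± 0.07 (SE; edgeR adjusted p = 0.00557). Cdt1, the partner of Cdc6 in loading, changed by -0.27 ± 0.07 (edgeR adjusted p = 0.016), with -0.51 in M1 at the largest and -0.08 in T2 at the smallest decline. Orc1, the largest subunit of the origin complex, did not pass, at -0.24 ± 0.08 (edgeR adjusted p = 0.0581), and its M3 value was 0.03. Leaving out a line ended the call of Cdt1 without T1 or M2 (0.0784 and 0.0655), and Orc1 passed without M3 (0.0437), all edgeR adjusted p.

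The MCM ring, the motor of the replicative helicase, had 3 of 6 members lower: Mcm3, Mcm4 and Mcm7. Mcm3 stood at 190.3, 238 and 286 CPM in M1, M2 and M3 and 249, 187 and 268 CPM in T1, T2 and T3 with PLX4720, against 269, 324 and 311 CPM and 367, 231 and 295 CPM in the same lines with DMSO. All 6 lines were lower with PLX4720, T1 and M1 most, and the treatments overlapped within either site. Its log2 change was -0.35 ± 0.08 (edgeR adjusted p = 0.0123). Mcm7 stood at 212, 283 and 243 CPM in M1, M2 and M3 and 331, 378 and 274 CPM in T1, T2 and T3 with PLX4720, against 293, 368 and 303 CPM and 373, 379 and 309.5 CPM in the same lines with DMSO. In the metastasis lines every PLX4720 library was below every DMSO library, whereas T2 was level, and the log2 change was -0.25 ± 0.06 (edgeR adjusted p = 0.0129). Mcm4 changed by -0.20 ± 0.06 (edgeR adjusted p = 0.0339) and was nearly level in M1, at -0.02. Mcm2, Mcm5 and Mcm6 did not pass, with log2 changes of -0.20, -0.16 and -0.17 (edgeR adjusted p = 0.0553, 0.166 and 0.137). All 3 were above DMSO in M3, by 0.01, 0.12 and 0.07 on the scale of log2(CPM + 1), and all 3 passed without M3 (edgeR adjusted p = 0.0167, 0.035 and 0.0228). Calls that were lost with a line left out were those of Mcm3 without T1 or M2 (0.0608 and 0.0514), Mcm4 without T1, T2, T3, M2 or M3 (0.129, 0.0779, 0.0829, 0.097 and 0.056) and Mcm7 without T1 or T3 (0.0635 and 0.0577), and Mcm4 also missed the threshold with no filter on low counts (0.0517). TPM is a level scaled by gene length and library, from the authors' gene lengths. In TPM, Mcm2 was the lowest of the 6 ring transcripts in all 12 libraries. The ratio of the highest to the lowest was 1.76 to 2.78. This rank depends on length, since Mcm2 had the longest exons of the 6, 6956 bases against 3422 (Mcm5) to 4666 (Mcm6). In CPM, which takes no account of length, Mcm4 (230 CPM) was below Mcm2 (320 CPM) in T1 with PLX4720. The TPM levels lay between 92.1 TPM, for Mcm2 in M1 with PLX4720, and 308 TPM, for Mcm4 in T3 with DMSO.

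Genes that turn the loaded ring into a running helicase were lower in 4 of 6 cases. Cdc45, which joins the ring with the GINS complex (ENSMUSG00000000028, chr16:18780447-18811987, minus strand), stood at 72.3, 79.1 and 86.7 CPM in M1, M2 and M3 and 51.4, 44.5 and 65.3 CPM in T1, T2 and T3 with PLX4720, against 118, 109 and 111 CPM and 63.8, 52.5 and 87.4 CPM in the same lines with DMSO. Its level with PLX4720 was below that with DMSO in every line, and in the metastasis lines the treatments did not overlap. The metastasis lines averaged 79.4 ± 7.17 CPM with PLX4720 and 113 ± 4.76 CPM with DMSO, and the primary lines 53.7 ± 10.6 CPM with PLX4720 and 67.9 ± 17.8 CPM with DMSO (SD, n = 3 lines each). The log2 change of -0.42 ± 0.06 had the smallest adjusted p of the 40 genes (edgeR adjusted p = 0.00257). Mcm10, needed to start unwinding, changed by -0.30 ± 0.07 (edgeR adjusted p = 0.0126), and its decline was largest in M2, at -0.54. Of the GINS subunits, Gins1 and Gins4 fell, with log2 changes of -0.40 ± 0.09 and -0.23 ± 0.06 (edgeR adjusted p = 0.013 and 0.02). Gins3 stood at -0.21 ± 0.08 and Gins2 at -0.12 ± 0.08, and neither passed (edgeR adjusted p = 0.0713 and 0.274). Of the exon bases of Gins2, 67.32% lie over the gene Gse1 on the opposite strand, and the counting recorded no strand option, so its count is uncertain. Without 1 line the calls lost were those of Mcm10 without T1 (0.0643), Gins1 without T1 (0.0573) and Gins4 without T1, T2, T3 or M2 (0.0636, 0.0559, 0.0828 and 0.0571) (edgeR adjusted p in parentheses).

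Polymerase and primase genes gave 1 call among 3. Pola1, the catalytic subunit of DNA polymerase alpha, stood at 126, 189.6 and 196 CPM in M1, M2 and M3 and 111, 107 and 131 CPM in T1, T2 and T3 with PLX4720, against 172, 187 and 215 CPM and 141, 123 and 167 CPM in the same lines with DMSO. M2 was level, and the other 5 lines were lower with PLX4720. The log2 change of -0.24 ± 0.07 passed (edgeR adjusted p = 0.0315), but it did not without T1, T2, T3, M1 or M3 (0.106, 0.0659, 0.11, 0.0695 and 0.0523), nor with scaling by total counts (0.0535). Prim1, the catalytic primase subunit, had a log2 change of -0.24 ± 0.08 with an edgeR adjusted p of 0.0508, just outside the threshold, which it passed without M3 (0.0307), with no filter on low counts (0.0451) and with DESeq2 (0.0486). Pole, the catalytic subunit of the leading-strand polymerase epsilon, was at -0.15 ± 0.07 (edgeR adjusted p = 0.14), with its decline almost wholly in M1 (-0.47), M3 (-0.17) and T1 (-0.18).

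The 3 subunits of replication protein A, which coats single-stranded DNA, did not move together. Rpa2 stood at 55.0, 72.3 and 76.9 CPM in M1, M2 and M3 and 46.2, 53.8 and 50.8 CPM in T1, T2 and T3 with PLX4720, against 83.3, 96.4 and 87.8 CPM and 64.1, 62.3 and 60.4 CPM in the same lines with DMSO. Within each site all PLX4720 libraries lay below all DMSO libraries, and the log2 change was -0.36 ± 0.07 (edgeR adjusted p = 0.00764). Rpa3 changed by -0.29 ± 0.08 (edgeR adjusted p = 0.0305), a call lost without T1, T3, M1 or M2 (0.101, 0.108, 0.0748 and 0.0901). Rpa1, the largest subunit (ENSMUSG00000000751, chr11:75298166-75348324, minus strand), stood at 282, 429 and 429.7 CPM in M1, M2 and M3 and 241.995, 194 and 174 CPM in T1, T2 and T3 with PLX4720, against 288, 385 and 294 CPM and 256, 211 and 193 CPM in the same lines with DMSO. It was higher with PLX4720 in M2 and M3, by 0.16 and 0.54 on the scale of log2(CPM + 1), and lower in the other 4 lines by at most 0.14. Its log2 change over all 6 lines was 0.05 ± 0.08 (edgeR adjusted p = 0.647), and without M3 it was -0.03.

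The sliding clamp and its loader gave 2 calls among 4. Pcna, the clamp itself (ENSMUSG00000027342, chr2:132249162-132253314, minus strand), stood at 240.5, 275 and 254 CPM in M1, M2 and M3 and 233, 421 and 271 CPM in T1, T2 and T3 with PLX4720, against 367, 401 and 300.0 CPM and 301, 485 and 323 CPM in the same lines with DMSO. T2 was the highest line under both treatments, every line was lower with PLX4720, and in the metastasis lines the treatments did not overlap. The log2 change of Pcna was -0.37 ± 0.07 (edgeR adjusted p = 0.00508). Rfc5, a loader subunit, changed by -0.28 ± 0.07 (edgeR adjusted p = 0.0183), whereas Rfc3 and Rfc4 did not pass, at -0.20 ± 0.07 and -0.15 ± 0.07 (edgeR adjusted p = 0.069 and 0.173). For both of these M1 stood apart, with -0.57 for Rfc3 and -0.44 for Rfc4 on the scale of log2(CPM + 1). The Rfc5 call was lost without T1, T2 or T3 (0.0803, 0.0556 and 0.0536) (edgeR adjusted p).

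Of the 2 genes that finish lagging-strand fragments, Fen1 passed and Lig1 did not. Fen1, the flap endonuclease, was counted at only 7.40 to 12.3 CPM, and 84.19% of its exon bases lie over Tmem258 and Gm10143 on the opposite strand, so its count is uncertain. Its log2 change was -0.42 ± 0.10 (edgeR adjusted p = 0.0151), a call lost without T1 or M2 (0.0682 and 0.0544). Lig1, the ligase that seals the fragments, stood at 98.6, 125 and 113 CPM in M1, M2 and M3 and 132, 137 and 130.0 CPM in T1, T2 and T3 with PLX4720, against 82.9, 129 and 107 CPM and 144, 146 and 98.3 CPM in the same lines with DMSO. M1 and T3 were higher with PLX4720, M3 slightly so, and M2, T1 and T2 were lower. The fitted log2 change of 0.08 ± 0.08 did not pass (edgeR adjusted p = 0.521), and it was -0.00196 without T3.

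Among nucleotide supply genes both thymidylate enzymes fell and the ribonucleotide reductase subunits did not pass. Tk1, the salvage thymidine kinase (ENSMUSG00000025574, chr11:117815526-117826092, minus strand), stood at 115, 151 and 118 CPM in M1, M2 and M3 and 76.8, 92.4 and 114 CPM in T1, T2 and T3 with PLX4720, against 184, 180.3 and 147 CPM and 108, 149.9 and 146 CPM in the same lines with DMSO. All 6 lines were lower with PLX4720, T2 and M1 most, and the treatments overlapped within either site. The log2 change was -0.47 ± 0.07 (edgeR adjusted p = 0.00307). Tyms, the thymidylate synthase, stood at 77.2, 103 and 92.4 CPM in M1, M2 and M3 and 58.3, 96.0 and 70.4 CPM in T1, T2 and T3 with PLX4720, against 128, 129 and 106 CPM and 74.0, 112 and 82.2 CPM in the same lines with DMSO. Every line was again lower, and the treatments did not overlap in the metastasis lines. Its log2 change was -0.34 ± 0.08 (edgeR adjusted p = 0.0116), a call lost without T1 (0.0542). Rrm1 and Rrm2, the large and small reductase subunits, had log2 changes of -0.11 ± 0.07 and -0.16 ± 0.10 (edgeR adjusted p = 0.242 and 0.286). Rrm2 spread widely, with -0.48 in T1 and -0.45 in M2 on the scale of log2(CPM + 1), against 0.22 in M1 and 0.08 in T3.

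Chromatin and histone supply genes gave 2 calls among 4. Slbp, which binds the stem-loop of histone mRNAs, changed by -0.29 ± 0.07 and Chaf1a, the large subunit of chromatin assembly factor, by -0.24 ± 0.07 (edgeR adjusted p = 0.0127 and 0.0306). Slbp and Chaf1a were lower in all 6 lines, Slbp least in M3 (-0.06) and Chaf1a least in T3 (-0.02). Chaf1b, its partner, and Uhrf1, which guides maintenance DNA methylation, did not pass, with -0.20 ± 0.07 and -0.18 ± 0.08 (edgeR adjusted p = 0.0546 and 0.124). With a line left out, calls were lost for Slbp without T1 or T3 (0.054 and 0.0538) and Chaf1a without T1, T2 or M2 (0.128, 0.105 and 0.105), while Chaf1b passed without M3 (0.0335) and Uhrf1 without T3 (0.0464), all edgeR adjusted p.

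The E2F factors held both ends of the range. E2f2, an activator (ENSMUSG00000018983, chr4:136172394-136196057, plus strand), stood at 2.44, 5.58 and 4.59 CPM in M1, M2 and M3 and 11.1, 12.8 and 25.4 CPM in T1, T2 and T3 with PLX4720, against 5.64, 11.2 and 10.0 CPM and 19.1, 17.3 and 24.9 CPM in the same lines with DMSO. It was lower with PLX4720 in all 3 metastasis lines, without overlap between treatments, and in T1 and T2, while T3 was level and the highest line throughout. The metastasis lines averaged 4.20 ± 1.61 CPM with PLX4720 and 8.95 ± 2.92 CPM with DMSO, and the primary lines 16.4 ± 7.83 CPM with PLX4720 and 20.4 ± 4.01 CPM with DMSO (SD, n = 3 lines each). The fitted log2 change over all 6 lines was -0.75 ± 0.12 (edgeR adjusted p = 0.00271). E2f8, a repressor of the family (ENSMUSG00000046179, chr7:48866429-48881596, minus strand), stood at 32.9, 26.2 and 17.8 CPM in M1, M2 and M3 and 28.1, 49.9 and 39.2 CPM in T1, T2 and T3 with PLX4720, against 45.4, 51.1 and 37.7 CPM and 42.8, 58.2 and 30.2 CPM in the same lines with DMSO. It was lower in 5 lines, and the treatments did not overlap in the metastasis lines, while T3 was higher with PLX4720. Its log2 change was -0.49 ± 0.13 (edgeR adjusted p = 0.0235), a call lost without T1, T2, M2 or M3 (0.0745, 0.0678, 0.0708 and 0.0582). E2f1, the best known activator, stood at 35.2, 34.5 and 31.5 CPM in M1, M2 and M3 and 14.7, 23.1 and 30.9 CPM in T1, T2 and T3 with PLX4720, against 37.3, 49.7 and 32.5 CPM and 17.5, 28.3 and 21.9 CPM in the same lines with DMSO. T3 alone was higher with PLX4720, and the log2 change of -0.12 ± 0.12 did not pass (edgeR adjusted p = 0.509). E2f7, the repressor most like E2f8, stood at 24.5, 25.8 and 22.4 CPM in M1, M2 and M3 and 18.1, 15.8 and 28.5 CPM in T1, T2 and T3 with PLX4720, against 22.2, 25.9 and 18.1 CPM and 18.4, 16.1 and 19.8 CPM in the same lines with DMSO. M1, M3 and T3 were higher with PLX4720 and the other lines were level, and the log2 change was 0.15 ± 0.10 (edgeR adjusted p = 0.27). In T3 the median change of the 4 factors was 0.42 on the scale of log2(CPM + 1), against -0.27 in M1, -0.70 in M2, -0.51 in M3, -0.41 in T1 and -0.25 in T2. The PLX4720 library of T3 is the one with the mitochondrial share of 3.67%, whose part in these values was not tested.

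**Figure D2:**
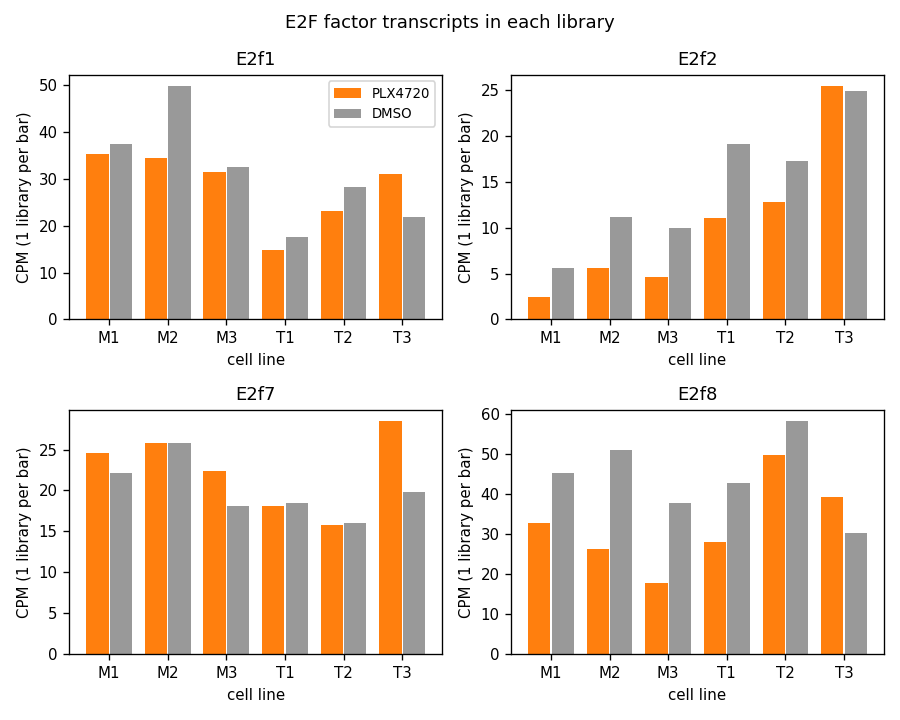
CPM of E2f1, E2f2, E2f7 and E2f8 (vertical axes, each from 0) in the 12 libraries, with PLX4720 in orange and DMSO in grey and 1 library per bar. In T3 the PLX4720 bar is above the DMSO bar for all 4 genes, while E2f2 and E2f8 are lower with PLX4720 in the other 5 lines.

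The lines differed in how far their replication transcripts declined. Each line has 1 library per treatment, so the values per line carry no test. The median change of the 40 genes on the scale of log2(CPM + 1) was -0.46 in M1, -0.32 in M2, -0.16 in M3, -0.34 in T1, -0.18 in T2 and -0.15 in T3. T3, M3 and T2 thus declined least and M1 most, and both ends of the order hold a metastasis and a primary line. Among 10620 tested genes with a mean of at least 5 CPM, the median was 0.05 in M1, -0.04 in M2, -0.02 in M3, -0.01 in T1, -0.01 in T2 and -0.02 in T3, so the order is not that of all genes. With scaling by total counts the 3 smallest medians were -0.12 in T2, -0.16 in T3 and -0.20 in M3, which changes the order among these 3 lines but not their set. The summed CPM of the 40 genes changed by -22.2% in M1, -17.4% in M2, -4.64% in M3, -18.5% in T1, -10.6% in T2 and -8.04% in T3. By this sum, which weighs abundant genes most, M3 declined least.

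**Figure D3:**
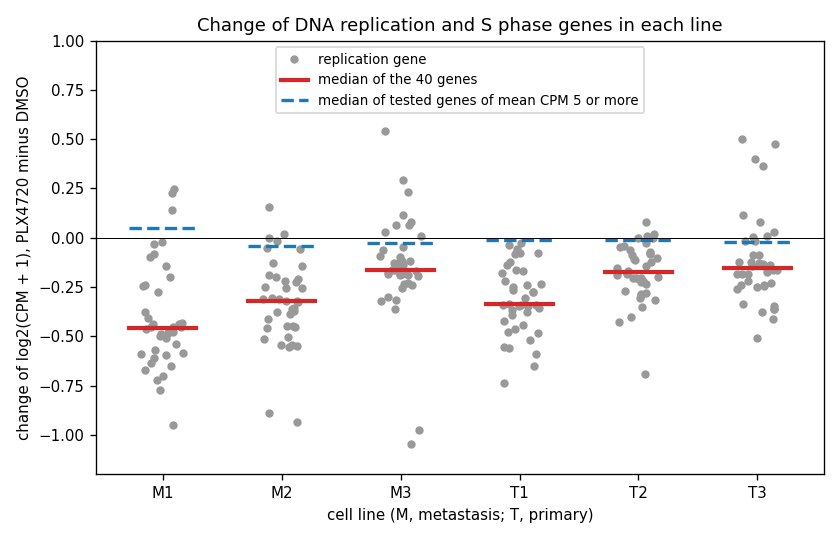
Change of each of the 40 genes (points) with PLX4720 on the scale of log2(CPM + 1) in each line, with the median of the 40 genes as a red bar and the median of 10620 tested genes with at least 5 CPM as a dashed blue bar. The red bar is lowest in M1 (-0.46) and nearest to 0 in T3 (-0.15), and the dashed bars lie between -0.04 and 0.05.

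Counting genes gives the same set of 3 lines with the smallest declines, but in another order. A decline of at least 1.25-fold was seen for 28 of 40 genes in M1 (13.8% of all genes tested), 20 in M2 (15.8%), 3 in M3 (12.5%), 21 in T1 (13.2%), 4 in T2 (8.1%) and 7 in T3 (10.1%). In M3, T2 and T3 the share of replication genes past this fold was 3, 4 and 7 of 40, not far from the background, although 31, 36 and 31 of the 40 were lower by any amount (53.8%, 51.8% and 53.3% of tested genes with a mean of at least 5 CPM). Among tested genes with a mean of at least 5 CPM, the shares past the same fold were 15.2% in M1, 20.8% in M2, 14.0% in M3, 17.0% in T1, 9.61% in T2 and 12.1% in T3. In T1 all 40 genes were lower by any amount, in M1 37 and in M2 38, where 51.9%, 44.7% and 54.5% of tested genes of at least 5 CPM were. M1 held the largest decline of 21 genes and T1 that of 11, while the value nearest to or furthest above 0 lay in M3 for 13 genes, T2 for 12 and T3 for 11. An increase of at least 1.25-fold was seen for 4 genes in T3 (15.4% of all genes tested), namely E2f7 (0.50), E2f1 (0.48), Lig1 (0.40) and E2f8 (0.37), and for Rpa1 in M3 (0.54; 13.6%).

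The 3 lines with the smallest declines differed in the genes concerned. In T3, Orc6 (-0.51) and Cdc45 (-0.41) declined about as far as in M2 (-0.50 and -0.46), and the E2F factors did not decline. In M3 the E2F factors E2f8 (-1.04) and E2f2 (-0.98) had the largest declines of the 40 genes in that line, and the median of the MCM ring was -0.05. T2 had its largest decline in Tk1 (-0.69), with an MCM ring median of -0.11 and Mcm7, Prim1 and Gins3 level. In M1, the line with the largest decline, the MCM ring median was -0.44 and those of the single-strand binding and of the clamp and loader groups were both -0.58, while Mcm4 (-0.02) and Rpa1 (-0.03) were level and Lig1 (0.25) and Rrm2 (0.22) were higher.

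**Figure D4:**
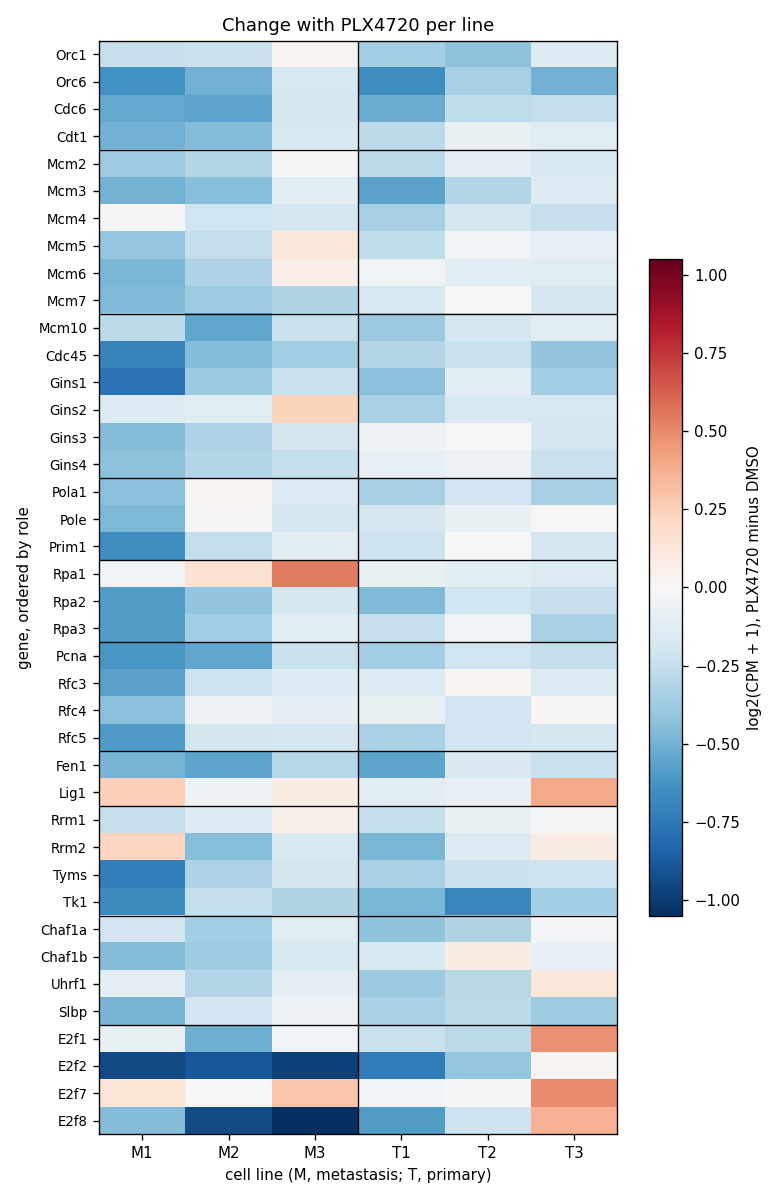
Change with PLX4720 on the scale of log2(CPM + 1) for the 40 genes (rows, ordered by role, with lines between roles) in 6 lines (columns, metastasis left of primary). Blue is lower and red is higher with PLX4720: the M1 and T1 columns are mostly blue, the E2F rows are red in T3, and Rpa1 is red in M3.

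Taken by site, PLX4720 lowered 17 of the 40 genes in the metastasis lines, where 8.36% of all genes tested were lower, and 2 in the primary lines, where 3.77% were (edgeR). No gene of the 40 was higher in either site by edgeR or DESeq2, where 12.0% of all genes tested were higher in the metastasis lines and 4.46% in the primary lines (edgeR). An unadjusted edgeR p under 0.05 was reached by 25 genes in the metastasis lines (34.3% of all genes tested) and 18 in the primary lines (26.1%). By size, E2f2 had the largest decline of the 17, with -1.11 ± 0.17 (edgeR adjusted p = 0.00259), and E2f8 the next (-0.83 ± 0.19, adjusted p = 0.0141). By p, E2f2 was followed by Cdc45 (-0.51 ± 0.09, adjusted p = 0.00508) and Pcna (-0.47 ± 0.10, adjusted p = 0.00983). The 2 genes of the primary lines were Orc6 (-0.51 ± 0.11, edgeR adjusted p = 0.0268) and Tk1 (-0.52 ± 0.11, edgeR adjusted p = 0.0252), which passed in the metastasis lines too. Chaf1b passed in the metastasis lines (-0.33 ± 0.09, edgeR adjusted p = 0.0344) without passing over all 6, and 6 genes passed over all 6 lines and in neither site. These counts moved with the line left out, and so did those of all genes tested. The metastasis count was 5 without M1 and 3 without M2, where 6.88% and 3.7% of all genes tested were lower. The primary count was 0 without T1, T2 or T3 (0.175%, 0.342% and 0.651% of all genes tested) and 6 without M1 (6.05%). In the metastasis lines E2f8 was lost without M2 or M3 (edgeR adjusted p = 0.0726 and 0.0565), Orc6 without M1 or M2 (0.0936 and 0.113) and Tk1 without M1 (0.108), and in the primary lines Orc6 was also lost without M2 (0.0506).

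The difference between sites was tested directly, and none of the 40 genes passed (edgeR; 2.94% of all genes tested did). DESeq2 gave 0 as well (6.74% of all genes it tested), and 3 genes had an unadjusted p under 0.05 by either tool (14.7% of all genes tested by edgeR). By edgeR these were E2f2, with a difference (metastasis minus primary) of -0.72 ± 0.23 (adjusted p = 0.173), E2f8 with -0.68 ± 0.26 (adjusted p = 0.256) and Mcm7 with -0.27 ± 0.11 (adjusted p = 0.312). The fitted change was lower in the metastasis lines for 27 of 40 genes and for 46.0% of all genes tested. The larger count of calls in the metastasis lines is thus not a tested difference between sites.

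Levels in metastasis and primary lines were also compared within each treatment, and none of the 40 genes passed with PLX4720 or with DMSO (edgeR; 13.5% and 12.1% of all genes tested did). With either treatment 6 genes had an unadjusted edgeR p under 0.05 (27.5% of all genes tested with PLX4720 and 25.9% with DMSO). E2f2, the nearest with PLX4720, stood at -1.93 ± 0.51 with PLX4720 and -1.18 ± 0.35 with DMSO (metastasis over primary, log2; edgeR adjusted p = 0.0531 and 0.0841). All metastasis lines were below all primary lines for E2f2 under both treatments. Rpa1 was nearest in the other direction with PLX4720, at 0.94 ± 0.25 (edgeR adjusted p = 0.0576). With DMSO, Rpa2 (0.53 ± 0.15) was nearest, then E2f2 and then Cdc45 (0.75 ± 0.23) (edgeR adjusted p = 0.0783 for Rpa2 and 0.089 for Cdc45). DESeq2 called E2f2 and Rpa1 with PLX4720 and E2f2, Rpa2 and Cdc45 with DMSO (adjusted p = 0.00134, 0.0231, 0.0119, 0.0121 and 0.0405). Rpa1 passed with PLX4720 by edgeR without M1 (adjusted p = 0.038), and Cdc45 with DMSO without T3 (0.0364).

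Some genes had levels that did not overlap between the sites. With PLX4720 the metastasis lines were all higher than the primary lines for 6 genes (E2f1, Rpa1, Rpa2, Tk1, Cdc45 and Rfc4; 16.6% of all genes tested) and all lower for 4 (E2f2, Gins1, Lig1 and Rrm2; 18.2%). With DMSO they were all higher for 9 (E2f1, Rpa1, Rpa2, Cdc45, Rfc4, Mcm6, Pola1, Rfc3 and Rrm1; 15.2%) and all lower for E2f2 (17.9%). Apart from the 9 of 40 with DMSO, these shares lie at or below the background.

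Genes of the same processes outside the list were read beside it. Over all 6 lines 12.7% of all genes tested were lower and 14.5% higher. Of 30 other replisome and licensing genes 16 were lower and none higher over all 6 lines, with a median log2 change of -0.22. Dna2, a nuclease and helicase of Okazaki fragment processing, changed by -0.67 ± 0.10, Orc2, another origin complex subunit, by -0.54 ± 0.08, Tipin, a fork protection protein, by -0.44 ± 0.07 and Wdhd1, which links helicase and polymerase alpha, by -0.33 ± 0.06 (edgeR adjusted p = 0.00176, 0.00203, 0.00357 and 0.00438). The replisome count was 6 without T2 and 7 without T1 or M2, where 8.26%, 6.25% and 7.57% of all genes tested were lower. It was 8 without M1, 10 without T3 and 17 without M3, where 11.8%, 8.15% and 11.8% were. Of 13 other nucleotide supply genes 8 were lower and 1 higher, with a median of -0.40. Shmt1 (-0.83 ± 0.08) and Mthfd1 (-0.44 ± 0.06), both of one-carbon metabolism, and Dctpp1 (-0.62 ± 0.08), which clears dCTP, fell (edgeR adjusted p = 0.000269, 0.00161 and 0.000969). Samhd1, which degrades deoxynucleotides, rose by 0.58 ± 0.08 (edgeR adjusted p = 0.00114), with 0.90, 1.15 and 1.22 in M1, M2 and M3 and 0.05, -0.16 and 0.26 in T1, T2 and T3 on the scale of log2(CPM + 1).

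Regulators of S phase entry moved in both directions, with 7 of 18 lower and 2 higher and a median of -0.21. For this and the next 2 lists the shares of all genes tested were 12.7% lower and 14.5% higher. Ccnd1, a D-type cyclin, changed by -0.57 ± 0.10, Ccne1, an E-type cyclin that drives S phase entry, by -0.54 ± 0.09 and Fbxo5, an inhibitor of the anaphase-promoting complex, by -0.34 ± 0.07 (edgeR adjusted p = 0.00425, 0.00399 and 0.00799). Cdkn1c, a kinase inhibitor counted at 0.202 to 6.30 CPM, rose by 1.20 ± 0.23 (edgeR adjusted p = 0.00617). The other gene that rose, named after its values were seen, was Cdkn1b, the kinase inhibitor p27, with 0.30 ± 0.07 (edgeR adjusted p = 0.0136), a call lost without T1 (0.0603). With a line left out, 5 (without T1) to 9 (without M1) genes of this list were lower, where 6.25% and 11.8% of all genes tested were. Ccnd1 stood at 654, 382 and 594 CPM in M1, M2 and M3 and 1020.3, 594 and 1206 CPM in T1, T2 and T3 with PLX4720, against 1102, 933 and 974 CPM and 1198, 837 and 1168 CPM in the same lines with DMSO. In T3 it was level, and in the 3 metastasis lines the treatments did not overlap. The D-type cyclins Ccnd2 and Ccnd3, named after their values were seen, moved in both directions. On the scale of log2(CPM + 1), Ccnd2 changed by 0.75, -0.07 and 0.47 in M1, M2 and M3 and 0.24, -0.54 and 0.64 in T1, T2 and T3. It was below 1 CPM in M1. For Ccnd3 the changes were 0.32, -0.19 and 0.002 in M1, M2 and M3 and -0.30, -0.26 and 0.12 in T1, T2 and T3. Of 13 other E2F, DP and pocket protein genes 3 were lower (E2f5, Tfdp1 and Lin9) and none higher, with a median of -0.11, and no call of these 3 held without T1, T2, T3 or M2. Of 15 mitosis genes 6 were lower and none higher, with a median of -0.17 and Cdk1 at -0.33 ± 0.06 (edgeR adjusted p = 0.00483). The mitosis count was 2 without T1 or T2 and 3 without M2, where 6.25%, 8.26% and 7.57% of all genes tested were lower.

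Transcripts that report ERK signalling had larger declines, with 9 of 12 lower and none higher (12.7% and 14.5% of all genes tested) and a median log2 change of -1.17. Etv4, an ERK-induced transcription factor, changed by -2.15 ± 0.16 and Dusp6, a phosphatase that acts on ERK, by -1.43 ± 0.15 (edgeR adjusted p = 0.000124 and 0.000404). Spry4, a feedback inhibitor, changed by -1.81 ± 0.43 (edgeR adjusted p = 0.0148), a call lost without M2 (0.052). On the scale of log2(CPM + 1), Etv4 changed by -1.37 in M1, -2.33 in M2, -2.26 in M3, -2.72 in T1, -2.15 in T2 and -1.73 in T3. For Dusp6 the changes were -1.23 in M1, -2.26 in M2, -2.30 in M3, -1.23 in T1, -0.86 in T2 and -0.63 in T3. Those of Spry4 were 0.15 in M1, -1.65 in M2, -1.78 in M3, -3.92 in T1, -1.84 in T2 and -0.77 in T3. The median of the 12 genes was -0.67 in M1, -1.30 in M2, -1.71 in M3, -0.86 in T1, -0.79 in T2 and -0.64 in T3. By this median, M3 had the largest ERK output decline with one of the smallest replication declines, and M1 the reverse, while T3 was small in both. Single genes gave other orders: Etv4 and Spry4 declined most in T1, and Dusp6 declined as far in M1 as in T1. Etv1, one of the 12, was at most 0.132 CPM in the primary lines and could hardly decline there.

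**Figure D5:**
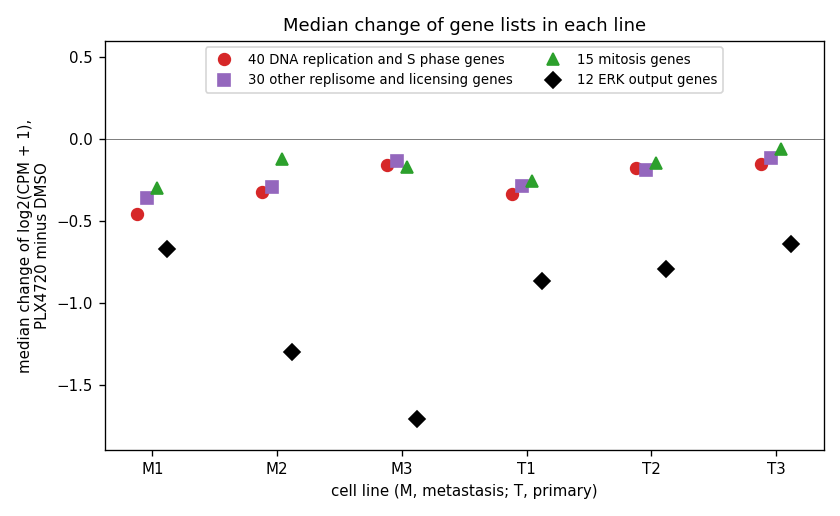
Median change with PLX4720 on the scale of log2(CPM + 1) in each line for the 40 replication genes, 30 other replisome and licensing genes, 15 mitosis genes and 12 ERK output genes. The diamonds of ERK output lie lowest in M3 (-1.71), where the replication median is -0.16, and the replication circles lie lowest in M1 (-0.46), where ERK output is at -0.67.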

How the data were processed

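RNA of 12 libraries was measured, 1 per line and treatment. Libraries were stranded and made from total RNA after ribosomal RNA removal, per the labels' protocols. Per the file headers, the authors counted fragments per gene with featureCounts 1.5.2 on Ensembl 84 (GRCm38), for pairs with both ends mapped and with no strand option recorded, and deposited these raw counts. For the aligner, no name is given in the sources used here. All later values were computed here from those counts.

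Counts were tested with edgeR 4.0.16 in R 4.3.3 (filterByExpr, TMM scaling, quasi-likelihood test, Benjamini-Hochberg over all genes tested, threshold 0.05). The PLX4720 fit held 16555 genes, with the cell line as block and a treatment term per site, and both terms were averaged for the value over all 6 lines. Site comparisons used the 6 libraries of a treatment, on 15276 genes with PLX4720 and 14992 with DMSO. Pairing comes from the cell line in the labels: deviations of both libraries of a line correlated at 0.839 to 0.923, against -0.0982 to 0.012 for equal numbers across sites. No libraries of the same group were duplicates (chi-square per degree of freedom at least 126.79), and pairs across groups were not checked this way. CPM used TMM factors, TPM the authors' gene lengths, and the change in a line is PLX4720 minus DMSO on log2(CPM + 1). SEs are the absolute log2 change over the root of the F statistic. Code was tested on simulated data.

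The 40 genes and all lists were chosen with earlier results of these data known. Full statistics were given for up to 2 genes per role with the smallest p, and for up to 4 per related list. Values beside these complete the account of the 40. Printed windows follow the smallest p and the largest p, and the other printed stretches were picked from the windows with a word after values were seen. Alternatives were DESeq2 1.42.0, other scalings, no filter, no block, each site alone and leaving out each line.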

Additional observations from a re-analysis of the deposited data

How the results depend on the processing

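Against 22 genes lower over all 6 lines (12.7% of all genes tested), counts with a line left out ran from 7 (without T1, 6.25%) to 25 (without M3, 11.8%). None of the 40 passed without the cell line block, where 0.0242% of all genes tested were lower. Against 2 in the primary lines (3.77% of all genes tested), DESeq2 gave 5 (6.38%) and the site alone 10 (7.98%). The fit without the cell line block gave 0 (0.0%), and leaving out a line gave 0 to 6 (0.175% to 6.05%). Against 17 in the metastasis lines (8.36% of all genes tested), the site alone gave 5 (5.41%) and the fit without the cell line block 0 (0.0242%). With a line left out the count was 3 to 23 (3.7% to 7.6%). Against 0 between sites with PLX4720 (13.5% of all genes tested), DESeq2 gave 2 (20.9%). DESeq2 size factors and total counts gave 1 each (13.4% of all genes tested in both), which was E2f2 (edgeR adjusted p = 0.05, rounded, and 0.038). With a line left out the count was 0 to 1 (6.82% to 10.7%). Total counts also moved the median of all genes in that comparison to -0.09, against 0.03 with TMM. Against 0 between sites with DMSO, DESeq2 gave 3, and leaving out a line 0 to 1. The replicate block on line numbers, which do not pair the sites, gave 0 in both. The difference between sites had 0 genes under each alternative run. With a line left out, Rpa1 ran between -0.03 and 0.12 and Lig1 between -0.00196 and 0.12, and both turned below 0, Rpa1 at -0.0292 without M3 and Lig1 at -0.00196 without T3. The cause was not tested. Scaling, filter and DESeq2 left 36 of the 40 single-gene results over all 6 lines on their side of the threshold, the others being Mcm2, Mcm4, Prim1 and Pola1. The medians per line moved by less than the spread between genes under other scalings and a pseudocount of 0.1. That spread is wider than the gaps between the medians of T2, M3 and T3 (-0.18, -0.16 and -0.15), whose order changed with total counts. With 3 lines per site and small changes, a gene that did not pass is not shown to be level, and E2f2, Fen1, Gins3 and Orc1 had the libraries with the fewest fragments.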

Other observations

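A cycling cell marker and a kinase inhibitor outside the 40, named after their values were seen, did not follow the replication median in each line. The marker is 1 of the 15 mitosis genes, of which 6 were lower and none higher over all 6 lines (12.7% and 14.5% of all genes tested). The median of those 15 lay between -0.30 in M1 and -0.06 in T3. Mki67, a marker of cycling cells, had a fitted log2 change of 0.10 ± 0.12 over all 6 lines (edgeR adjusted p = 0.6), and on the scale of log2(CPM + 1) it changed by -0.02 in M1, 0.68 in M2, -0.04 in M3, -0.26 in T1, -0.22 in T2 and 0.43 in T3. It was higher with PLX4720 in M2 and T3 and lower or level in the other lines. Cdkn1a, the kinase inhibitor p21, did not pass either, at -0.56 ± 0.30 (edgeR adjusted p = 0.203), although it passed without M1 (0.0028), with changes of 0.04 in M1, -1.73 in M2, -1.53 in M3, -0.05 in T1, 0.15 in T2 and 0.71 in T3, and it was counted at 0.697 to 18.4 CPM.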
